A study of Mus musculus with 6 samples.

Results

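The genes described here are 41 genes of protein folding and stress signalling in the endoplasmic reticulum (ER), picked by symbol from a list of pathway members. All 41 were among the 16171 genes of the count table, and all 41 were expressed highly enough to be tested, as were 11480 genes in all. By role they are 15 chaperones and folding enzymes, 7 genes of ER-associated degradation and 3 genes of translocation and the ER membrane. The others are 5 genes for sensors and the transcription factor XBP1 (Atf6, Ern1, Eif2ak3, Eif2ak4 and Xbp1) and 11 genes of the ATF4-CHOP branch. Raw264.7 cells, a wild-type mouse macrophage line, were grown on titanium with titanate nanowires from alkaline heat treatment (TH, the control surface, 3 libraries) or on titanium with a biomimetic calcium phosphate nanowire coating (THCaP, 3 libraries). The libraries are called TH1 to TH3 and THCaP1 to THCaP3, as labelled. Cells of both groups were left for 12 h on the surfaces, exposed to 1 µg/mL lipopolysaccharide (LPS, a bacterial cell wall component) for 2 h and then cultured for 1 d before RNA sequencing. All libraries come from LPS-treated cells of 1 cell line, so unstimulated levels are not known, and fewer cells of a state and less RNA per cell cannot be told apart in bulk RNA.

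Proteins destined for secretion or for membranes enter the ER, where chaperones and disulphide isomerases fold them. When unfolded protein builds up, the sensors IRE1 (Ern1), PERK (Eif2ak3) and ATF6 signal to the nucleus, a programme known as the unfolded protein response. IRE1 splices Xbp1 mRNA and ATF6 is cut to an active factor, and both raise transcription of chaperone and degradation genes. PERK slows translation and thereby favours the factor ATF4, which induces CHOP (Ddit3) and, when amino acids are short, is also engaged through the kinase GCN2 (Eif2ak4). Macrophages switch on parts of this programme when they secrete cytokines. Splicing of Xbp1, cutting of ATF6 and phosphorylation of PERK are not visible in counts per gene.

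XBP1 and ATF6 are known to act through a DNA element called the ERSE, a CCAAT box and a CCACG box separated by 9 bases. The element (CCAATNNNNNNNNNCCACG, either strand) was searched in RefSeq windows of GRCm38.p6 from 250 bases before to 50 after each gene's start, which the reference table held for 35 of the 41 genes (all but Atf6, Derl1, Hyou1, Manf, Ppp1r15b and Sec61a1). It was present for 8 of these 35 genes (22.9%), against 0.119% of all 32851 windows, and 7 of the 8 were chaperones. The first share counts genes, which had 38 windows, and the second counts windows. The genes were picked as members of the pathway in which the element acts, so setting the shares side by side is no test. Stretches around the element are shown for the 6 of the 8 genes with the highest expression per length, because this shared sequence lies near the starts of genes whose levels differed between libraries as described further on. Capitals mark the CCAAT and CCACG boxes, or their reverse complements, on the strand of the gene.
Hspa5 (chr2:34772010-34772058, plus strand): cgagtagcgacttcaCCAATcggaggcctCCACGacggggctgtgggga
Hsp90b1 (chr10:86705518-86705671, minus strand): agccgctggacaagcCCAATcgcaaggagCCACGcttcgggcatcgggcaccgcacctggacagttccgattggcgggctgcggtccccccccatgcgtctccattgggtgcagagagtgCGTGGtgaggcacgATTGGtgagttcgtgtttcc
Calr (chr8:84847060-84847108, minus strand): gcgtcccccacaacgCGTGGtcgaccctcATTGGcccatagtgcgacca
Pdia6 (chr12:17266476-17266524, plus strand): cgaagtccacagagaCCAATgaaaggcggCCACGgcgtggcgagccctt
Canx (chr11:50325785-50325833, minus strand): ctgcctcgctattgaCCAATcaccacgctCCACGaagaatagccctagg
Creld2 (chr15:88819505-88819553, plus strand): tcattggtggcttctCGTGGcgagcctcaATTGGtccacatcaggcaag
Dnajc3 and the degradation gene Syvn1 were the other genes with the element, and Hsp90b1 held it in both orientations. In Hspa5 the element began 65 bases before the RefSeq start, which lies downstream of the start of the GENCODE gene given further on, so the stretch shown falls inside that GENCODE interval.

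A related element, ERSE-II (ATTGGNCCACG, either strand), was found for Dnajb11 and Herpud1 and in 0.0365% of all windows. The core of the C/EBP-ATF element bound by ATF4 (TGATGNAA, either strand) was found for Herpud1, Trib3, Chac1 and Nupr1, which is 11.4% of the genes with a window against 3.97% of all windows. It is shown for the 3 genes of the ATF4-CHOP branch that held it, chosen after their values were seen, because they share the core but differed in how far they moved. In Nupr1 the stretch lies inside the GENCODE gene (126623249 to 126630861), and in Trib3 the core lies after the RefSeq start. Capitals mark the fixed bases of the core, here on the opposite strand.
Nupr1 (chr7:126625558-126625595, minus strand): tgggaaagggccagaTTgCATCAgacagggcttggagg
Trib3 (chr2:152344024-152344061, minus strand): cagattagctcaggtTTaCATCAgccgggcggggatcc
Chac1 (chr2:119351034-119351071, plus strand): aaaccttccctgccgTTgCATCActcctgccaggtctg
The core of another element bound by XBP1 (TGACGTGG, either strand) was found in 0.676% of all windows and for 0 of the 35 genes. These matches describe letters in 1 window and are not evidence of binding.

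Libraries held 28000099 to 30317108 counts, and TMM scaling factors ran from 0.975 to 1.02. All 10 macrophage markers examined were detected, at a summed 3014 to 3563 CPM (counts per 1000000, here of the library total and elsewhere TMM-scaled) on TH and 3406 to 3641 CPM on THCaP. Markers of stromal, epithelial, T cell, B and plasma cell and neutrophil origin summed to at most 1.07 CPM for any type in any library. The 4 endothelial markers summed to 4.43 to 5.57 CPM on TH and 2.31 to 4.14 CPM on THCaP, nearly all from Pecam1, with Cdh5 at 0.0523 CPM. On the first principal component, with 60.5% of the variance, TH libraries lay between −22.2 and −16.3 and THCaP1, THCaP2 and THCaP3 at 19.3, 35.9 and 5.17, so that the THCaP libraries spread more widely on this component. On the second, with 13.7% of the variance, TH1 lay apart at 21.9, TH2 and TH3 at −9.61 and −9.06, and the THCaP libraries between −1.48 and −0.55.

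Those of the ER stress genes that passed the test were all lower on THCaP, led by CHOP (Ddit3), BiP (Hspa5) and Nupr1. Of the 41 genes, 11 fell, 0 rose and 30 were not called by edgeR (Benjamini-Hochberg adjusted p under 0.05 over all tested genes). Among all tested genes 23.6% were called, 12.0% lower and 11.6% higher, and among the 41 genes 26.8% were called lower. The median log2 fold change (THCaP over TH) was −0.16, against 0.0064 over all tested genes. Without adjustment, 15 of the 41 had a p under 0.05 in the lower direction and 0 in the higher, against 2208 lower and 2276 higher of the 11480 genes tested. DESeq2 and limma-voom also called 0 of the 41 higher. In 15 genes every THCaP library lay below every TH library and in 0 above, where the background is 21.3% and 22.1% of tested genes. Scaling by library totals instead of TMM gave 8 of the 41 called lower and 0 higher, while over all genes the split moved from 1333 higher and 1376 lower to 1904 and 1063. The changes were modest: the largest was 1.64-fold, and only Hspa5, Ddit3 and Nupr1 of the 11 kept their call under each of the 16 alternative analyses. The count of genes called lower was 4 without TH2, 3 without TH3 and 4 without THCaP1, and 10 to 13 without any of the others. Over all genes the lower calls dropped from 1376 to 506, 490 and 465 in the first 3 of these analyses.

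**Figure D1:**
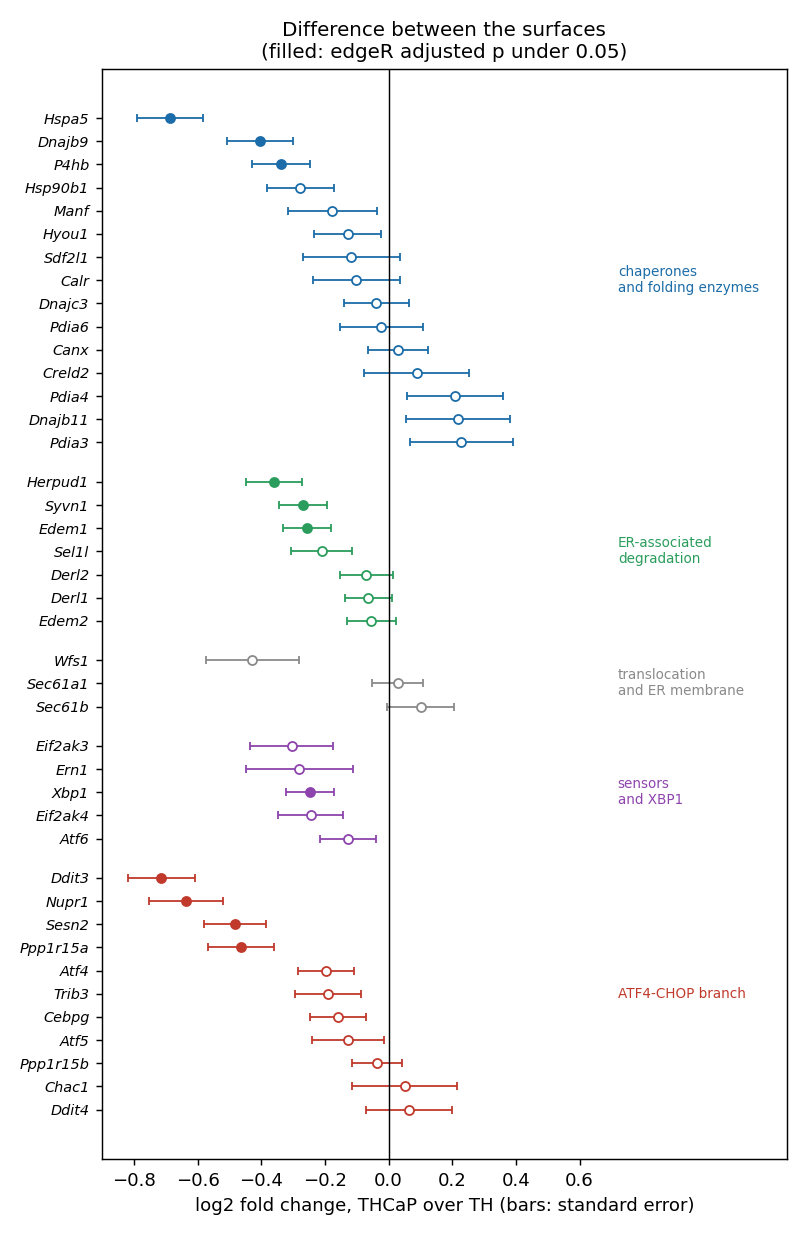
Log2 fold change of the 41 genes, THCaP over TH (x axis; bars are the standard error), by role; filled points passed the edgeR test. The 11 filled points all lie left of 0, from −0.25 for Xbp1 to −0.71 for Ddit3.

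Among the 15 chaperones and folding enzymes 3 fell, 0 rose and 12 were not called. The share called lower was 20%, against 12.0% of all tested genes, of which 11.6% were called higher. Hspa5 encodes BiP, the ER's HSP70 chaperone and the regulator that holds the sensors inactive. It stood at 2647, 3074 and 3453 CPM in TH1, TH2 and TH3 and at 1882, 2042 and 1778 CPM in THCaP1, THCaP2 and THCaP3. The lowest TH library lay well above the highest THCaP library. The mean fell 1.61-fold, from 3058 ± 403 to 1901 ± 133 CPM (SD, n = 3 each; log2 fold change −0.69, SE 0.10, adjusted p = 0.00473 in edgeR). The gene lies on chromosome 2 at 34771970 to 34777547 on GRCm38 and is protein coding. A ratio taken within a library does not depend on scaling. Hspa5 made up 22.1%, 24.5% and 25.8% of the counts of the 15 genes in TH1, TH2 and TH3 and 18.3%, 18.2% and 18.4% in THCaP1, THCaP2 and THCaP3. Its counts were 1.71, 1.78 and 1.85 times those of Hsp90b1 on TH and 1.33, 1.29 and 1.42 times on THCaP, so Hspa5 was lower also relative to its companion chaperone. These and the other ratios within libraries were chosen with the values known and were not tested.

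P4hb, the disulphide isomerase PDI, was the most abundant of the 41 genes per length, at a mean of 1141 FPKM (fragments scaled to gene length and library depth), ahead of Hspa5 at 974 and Hsp90b1 at 566 FPKM. Its TH libraries were nearly identical at 3659.6, 3642 and 3658 CPM, and its THCaP libraries stood at 2874, 2559.9 and 3239 CPM. All THCaP libraries were lower, by different amounts, with the smallest gap in THCaP3. The change was 1.26-fold (log2 fold change −0.34, SE 0.09, adjusted p = 0.029 in edgeR). The call was lost without TH1 (0.0517), TH2 (0.0854), TH3 (0.0999), THCaP1 (0.109) or THCaP2 (0.0628).

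Dnajb9 encodes ERdj4, a BiP co-chaperone that is a classical target of XBP1. It was measured at 34.5, 42.3 and 44.1 CPM on TH and at 31.0, 30.3 and 30.1 CPM on THCaP. The THCaP libraries agreed closely and lay below each TH library. The difference was 1.32-fold (log2 fold change −0.40, SE 0.10, adjusted p = 0.0252 in edgeR), and the call was lost without TH2 (0.0951), TH3 (0.108) or THCaP1 (0.0827).

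The 12 uncalled folding genes had log2 fold changes from −0.28 to 0.23. Hsp90b1 (GRP94, the ER's HSP90) had a mean of 1715 ± 159 CPM on TH against 1415 ± 168 CPM on THCaP (−0.28, SE 0.11, adjusted p = 0.0816 in edgeR; 0.0320 without THCaP2 and 0.044 with DESeq2). The stress-induced secreted factor Manf stood at −0.18, the BiP exchange factor Hyou1 at −0.13 and Sdf2l1, a partner of the ER HSP40 proteins, at −0.12. The lectin chaperones calreticulin (Calr, −0.10) and calnexin (Canx, 0.03), which hold glycoproteins, lay near 0. So did the BiP co-chaperone Dnajc3 (−0.04), the isomerase Pdia6 (−0.02) and the stress-induced Creld2 (0.09). The isomerases Pdia3 (0.23), the partner of the lectin chaperones, and Pdia4 (0.21) and the co-chaperone Dnajb11 (0.22) had positive values with SE of 0.15 to 0.16. For Calr, Canx, Dnajc3, Pdia6, Creld2 and Sdf2l1 the sign itself turned when 1 library was left out.

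**Figure D2:**
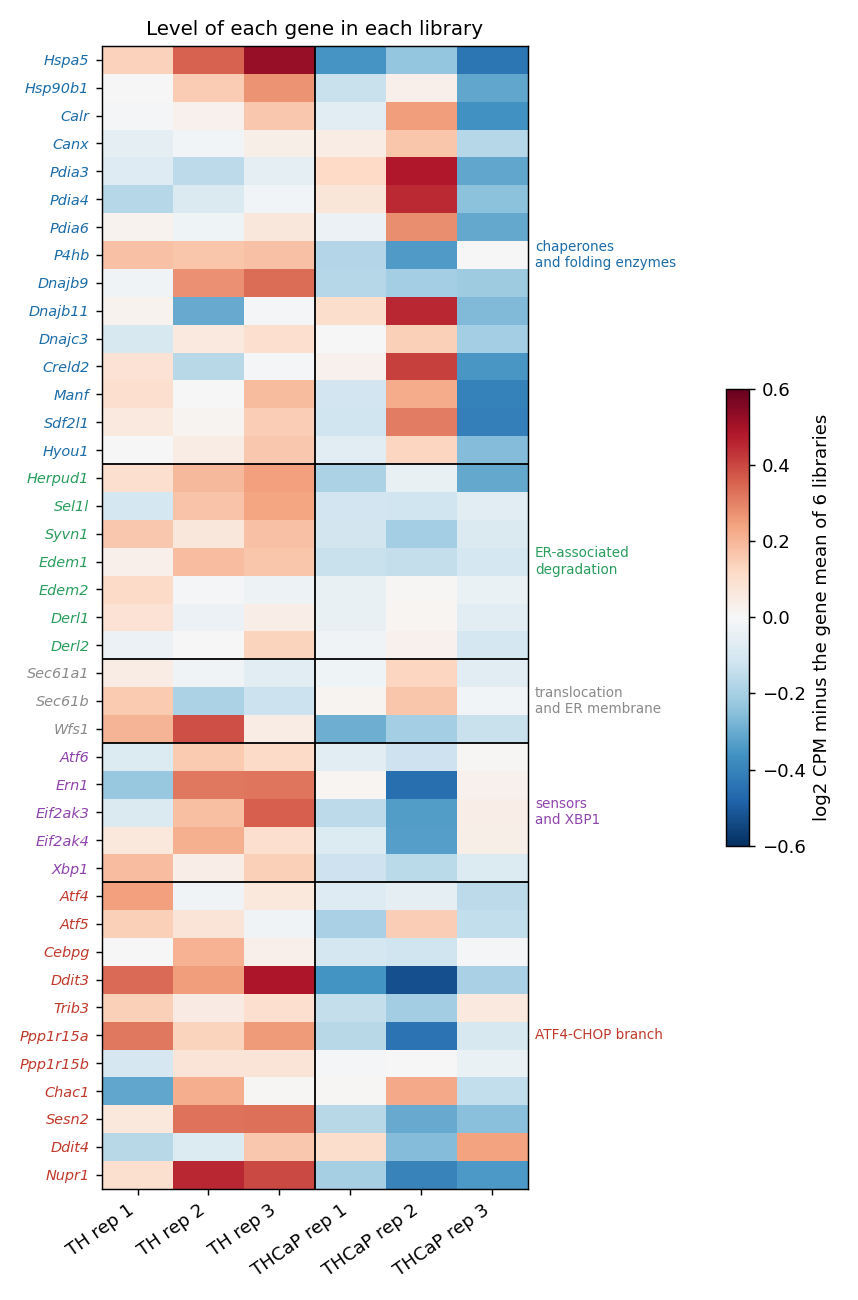
Log2 CPM of each gene in each library minus the gene's mean over the 6 libraries (colour), with genes in rows by role and libraries in columns. Most folding genes are red in THCaP2 and blue in THCaP3, whereas Hspa5, Ddit3, Sesn2 and Nupr1 are blue in all 3 THCaP libraries.

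The spread of the folding genes over the THCaP libraries was wide and shared, a pattern noticed in these data and given as a description. In 13 of the 15 genes THCaP2 was the highest THCaP library, and in 14 THCaP3 was the lowest, where 42.4% and 41.1% of all tested genes have that order. In 14 of 15 genes THCaP3 also lay below every TH library (background 30.2%), and in 10 THCaP2 lay above every TH library (background 40.3%). The median ratio of the highest to the lowest THCaP library was 1.50 for the folding genes and 1.20 for all tested genes. On TH the ratio was 1.13 for the folding genes and 1.17 for all. All 7 folding genes with the ERSE, Hspa5, Hsp90b1, Calr, Canx, Pdia6, Dnajc3 and Creld2, followed this order of libraries. So did Pdia3, Pdia4, Sdf2l1 and Dnajb11, for which no ERSE was found, and Manf and Hyou1, which had no window. Syvn1, the degradation gene with the ERSE, had the reverse order, at 84.4, 79.1 and 85.9 CPM in THCaP1, THCaP2 and THCaP3. A link between the element and the order was not tested. Among the folding genes the exceptions for THCaP2 were P4hb, which was lowest there, and Dnajb9, which was nearly level.

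Pdia3 shows the pattern most clearly, with 542, 514 and 551 CPM on TH and 622, 799 and 461 CPM on THCaP. Its THCaP libraries thus lay on both sides of TH, and the ratio of THCaP2 to THCaP3 was 1.73. Dnajb11 was at 109.7, 87.9 and 107 CPM on TH and 116, 148 and 90.1 CPM on THCaP. Pdia4 was at 166, 176 and 185 CPM on TH and 196, 255 and 157 CPM on THCaP. Like Pdia3, both ranged from below the TH mean to above each TH library within 1 group.

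The balance of this group changed with the THCaP library left out. Without THCaP3, 3 folding genes were called higher, Pdia3 (log2 fold change 0.41, adjusted p = 0.0125 in edgeR), Pdia4 (0.36, 0.0256) and Dnajb11 (0.38, 0.0321), and 3 lower. Calls over all genes rose as well in that analysis, from 1333 to 2145 higher and from 1376 to 2020 lower. The median of the 15 genes was then 0.038, with 9 values above 0. Without THCaP2, 0 were called higher and 5 lower, among them Manf (−0.35, 0.0399) and Sdf2l1 (−0.33, 0.0469), and the median was −0.23, with 12 values below 0. Calls over all genes were then 734 higher and 937 lower. With all 6 libraries the median was −0.10, with 10 values below 0. THCaP2 and THCaP3 are also the THCaP libraries farthest from and nearest to TH on the first principal component, and the part of that difference in the folding genes was not tested. Hspa5 moved less, with −0.64 without THCaP3 and −0.74 without THCaP2, and so did Dnajb9, with −0.39 and −0.40.

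**Figure D3:**
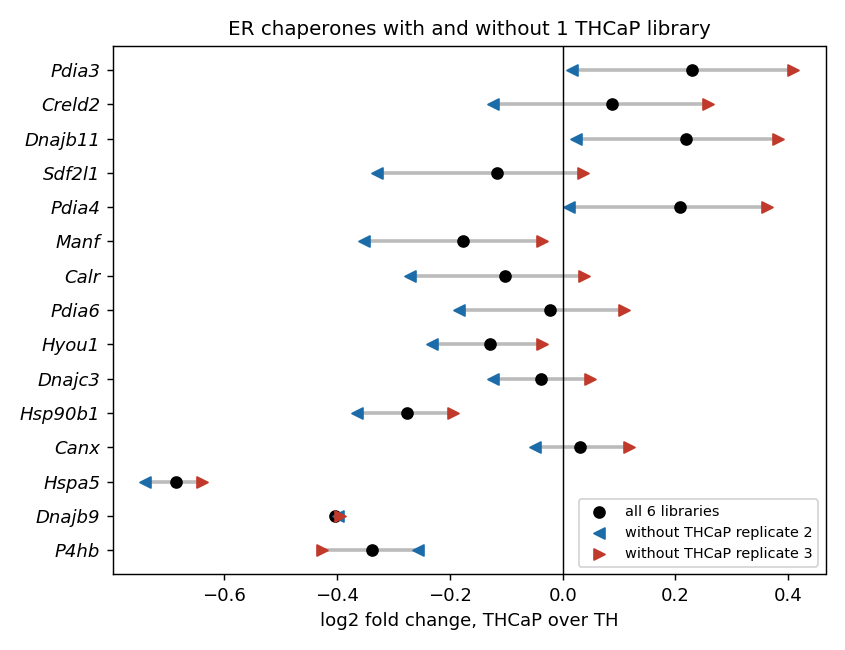
Log2 fold change (x axis, THCaP over TH) of the 15 chaperones and folding enzymes with all 6 libraries (circles) and without THCaP2 or THCaP3 (triangles). Values of Calr, Canx, Pdia6, Dnajc3, Creld2 and Sdf2l1 cross 0, whereas Hspa5 stays between −0.74 and −0.64.

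ER-associated degradation returns misfolded proteins to the cytosol for the proteasome. All 7 genes had a log2 fold change below 0, with a median of −0.21, and 3 of them fell. In edgeR without TH2, TH3 or THCaP1 the fallen genes numbered 0, and without THCaP2 or with library totals 1. The lower calls over all genes were then 506, 490, 465, 937 and 1063, in that order, against 1376 in the main analysis. Below 0 lay 49.3% of all tested genes. Called lower were 42.9% of these 7 genes and 12.0% of all tested genes. Herpud1, a stress-induced scaffold of the retrotranslocation complex, stood at 120.4, 129 and 133 CPM on TH and 98.3, 109 and 90.6 CPM on THCaP. The groups did not overlap, and the 1.28-fold decrease (−0.36, SE 0.09, adjusted p = 0.0214 in edgeR) lost its call without TH2 (0.0768), TH3 (0.0935) or THCaP1 (0.0919).

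Syvn1 encodes HRD1, the ubiquitin ligase of this pathway. Its levels were 102, 95.8 and 103 CPM on TH against 84.4, 79.1 and 85.9 CPM on THCaP, again without overlap (−0.27, SE 0.08, adjusted p = 0.0323 in edgeR). Edem1, a lectin that selects misfolded glycoproteins, was at 554, 617 and 608 CPM on TH and at a nearly constant 495, 492 and 504 CPM on THCaP (−0.26, SE 0.08, adjusted p = 0.0378 in edgeR). Each was lost without TH2 (0.0761 for Syvn1 and 0.138 for Edem1), TH3 (0.13 and 0.15), THCaP1 (0.119 and 0.153) or THCaP2 (0.0746 and 0.0688). With library totals they also missed the threshold (0.0598 and 0.0727). Exons of Syvn1 overlap those of Mrpl49 on the opposite strand, and reads of overlapping genes cannot be told apart because the strand setting of the counting is not given in the sources used here.

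The other degradation genes did not pass. Sel1l, the adaptor that stabilises HRD1, had 236 ± 28.5 CPM on TH against 204 ± 4.27 CPM on THCaP (−0.21, adjusted p = 0.136 in edgeR; 0.0241 without TH1). The glycoprotein lectin Edem2 (−0.05) and the channel proteins Derl1 (−0.06) and Derl2 (−0.07) differed by less than their SE of 0.07 to 0.08. The difference among the THCaP libraries seen for the folding genes was small here: the median ratio of the highest to the lowest THCaP library was 1.05.

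Among the translocation and membrane genes 0 were called in either direction, and at an unadjusted p under 0.05 1 was lower and 0 were higher. DESeq2 called 1 of them lower and limma-voom 0. Of all tested genes 12.0% were called lower and 11.6% higher in edgeR. The channel subunits Sec61a1 (0.03, SE 0.08) and Sec61b (0.10, SE 0.10), through which new proteins enter the ER, lay close to 0. Wfs1, an ER membrane glycoprotein, was the lowest expressed of the 41 genes per length, at 1.91 FPKM. It had 7.76, 8.83 and 6.95 CPM on TH against 5.50, 5.85 and 6.14 CPM on THCaP, with no overlap (−0.43, SE 0.15, adjusted p = 0.0576 in edgeR; 0.0402 with DESeq2 and 0.0497 with a filter of 5 CPM).

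The sensors had log2 fold changes below 0 without passing the test, and Xbp1 fell. Xbp1 stood at 369.8, 333 and 359 CPM in TH1, TH2 and TH3 and at 298, 290.0 and 307 CPM in THCaP1, THCaP2 and THCaP3. Every THCaP library was lower, and the decrease was 1.19-fold (−0.25, SE 0.08, adjusted p = 0.0436 in edgeR). This call was the least secure of the 11: it was lost in 11 of 16 alternatives, among them library totals (0.0881), no filter (0.0564) and the omission of TH1 (0.062), TH2 (0.079), TH3 (0.154), THCaP1 (0.165) or THCaP2 (0.0872). The counts do not separate spliced from unspliced Xbp1.

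Atf6 was the most abundant sensor per length, at 55.1 FPKM, against 18.8 for Eif2ak4, 11.4 for Eif2ak3 and 8.01 for Ern1. Atf6 had 412, 486 and 471 CPM on TH against 416, 399 and 438 CPM on THCaP, which overlap (−0.13, SE 0.09, adjusted p = 0.302 in edgeR). Ern1 had 46.8, 68.2 and 68.5 CPM on TH against 55.3, 40.1 and 55.7 CPM on THCaP (−0.28, SE 0.17, adjusted p = 0.239 in edgeR). In each group 1 library lay apart, TH1 and THCaP2, and TH1 fell inside the THCaP range.

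Eif2ak3 had 51.9, 62.3 and 70.7 CPM on TH against 49.4, 43.6 and 56.7 CPM on THCaP (−0.30, SE 0.13, adjusted p = 0.114 in edgeR). The amino acid sensor Eif2ak4 did not overlap between groups, at 114 ± 6.42 and 96.5 ± 12.1 CPM (−0.24, SE 0.10, adjusted p = 0.105 in edgeR). Without THCaP3 Eif2ak3 (0.0282) and Eif2ak4 (0.0242) were called lower, so 3 of the 5 genes were then called. Over all genes the lower calls rose from 1376 to 2020 in that analysis. In all 5 genes of this role THCaP2 was the lowest THCaP library, opposite to most folding genes. The median ratio of THCaP2 to THCaP3 was 0.777, against 1.50 for the folding genes and 1.00 for all tested genes. Of the called genes of other roles, P4hb, Syvn1, Edem1, Ddit3, Ppp1r15a, Sesn2 and Nupr1 were also lowest in THCaP2. Hspa5 and Herpud1 were highest there, and Dnajb9 lay between. The share of all tested genes with THCaP2 lowest was not determined.

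In the ATF4-CHOP branch 4 of 11 genes fell, 0 rose and 7 were not called, with a median of −0.19. The share called lower was 36.4%, against 12.0% of all tested genes, of which 11.6% were called higher. Without TH3 the fallen genes of the branch numbered 2, while the lower calls over all genes dropped from 1376 to 490. Ddit3 encodes CHOP, a factor that promotes cell death under lasting stress. It was at 62.7, 59.0 and 69.5 CPM on TH and 38.7, 34.5 and 43.4 CPM on THCaP. The groups were clearly apart, and the 1.64-fold decrease (−0.71, SE 0.11, adjusted p = 0.00454 in edgeR) was the largest of the 41 genes. It kept its call under each of the 16 alternatives, with adjusted p up to 0.0351. Ddit3 lies on chromosome 10 at 127290829 to 127293753 on GRCm38 and is protein coding.

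Ppp1r15a (GADD34), which is induced by ATF4 and CHOP and restarts translation, was at 312, 276 and 300.3 CPM on TH and 224, 185 and 235 CPM on THCaP. All THCaP libraries were lower, 1.38-fold in the mean (−0.46, SE 0.10, adjusted p = 0.015 in edgeR; 0.0622 without TH3 and 0.053 without THCaP1). Its exons overlap those of Tulp2 on the opposite strand. Its constitutive counterpart Ppp1r15b did not pass, at 299.5 ± 20.7 and 292 ± 3.76 CPM (−0.04, SE 0.08, adjusted p = 0.755 in edgeR). Within a library, Ppp1r15a had 1.13, 0.885 and 0.963 times the counts of Ppp1r15b on TH and 0.763, 0.627 and 0.819 times on THCaP, so each THCaP ratio lay below each TH ratio.

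Sesn2, a stress-induced restraint on the growth kinase mTORC1, was at 38.4, 46.1 and 46.3 CPM on TH and 32.8, 29.9 and 31.0 CPM on THCaP. It fell 1.40-fold without overlap (−0.48, SE 0.10, adjusted p = 0.0112 in edgeR; 0.0551 without TH2 and 0.0559 without TH3). Nupr1, a stress-induced nuclear protein, was at 24.5, 31.3 and 30.1 CPM on TH and 19.9, 17.4 and 18.0 CPM on THCaP. It fell 1.55-fold (−0.64, SE 0.12, adjusted p = 0.00809 in edgeR) and remained called in each of the 16 alternatives.

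The factor at the head of the branch did not pass the test. Atf4 stood at 486, 404 and 428 CPM on TH and 389, 394 and 368 CPM on THCaP. The groups did not overlap, with a narrow gap between TH2 and THCaP2 (−0.20, SE 0.09, adjusted p = 0.129 in edgeR). Counts of Ddit3 were 0.129, 0.146 and 0.162 times those of Atf4 in TH1, TH2 and TH3 and 0.0996, 0.0874 and 0.118 times in THCaP1, THCaP2 and THCaP3. CHOP mRNA was thus lower also relative to Atf4 mRNA, while the amount of ATF4 protein was not measured. The related factor Atf5 (−0.13) and the ATF4 partner Cebpg (−0.16) were not called, nor was the pseudokinase Trib3 (−0.19), a target of ATF4 and CHOP that restrains both. The glutathione-degrading enzyme Chac1 (0.05) and the mTORC1 inhibitor Ddit4 (0.06) lay near 0. Of the 3 genes with the ATF4 core motif shown above, Nupr1 fell, while Trib3 (SE 0.10) and Chac1 (SE 0.16) were not called. The degradation gene Herpud1, which also held the core, fell. Ddit3, Ppp1r15a and Sesn2 fell without a match to the core in their windows.

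**Figure D4:**
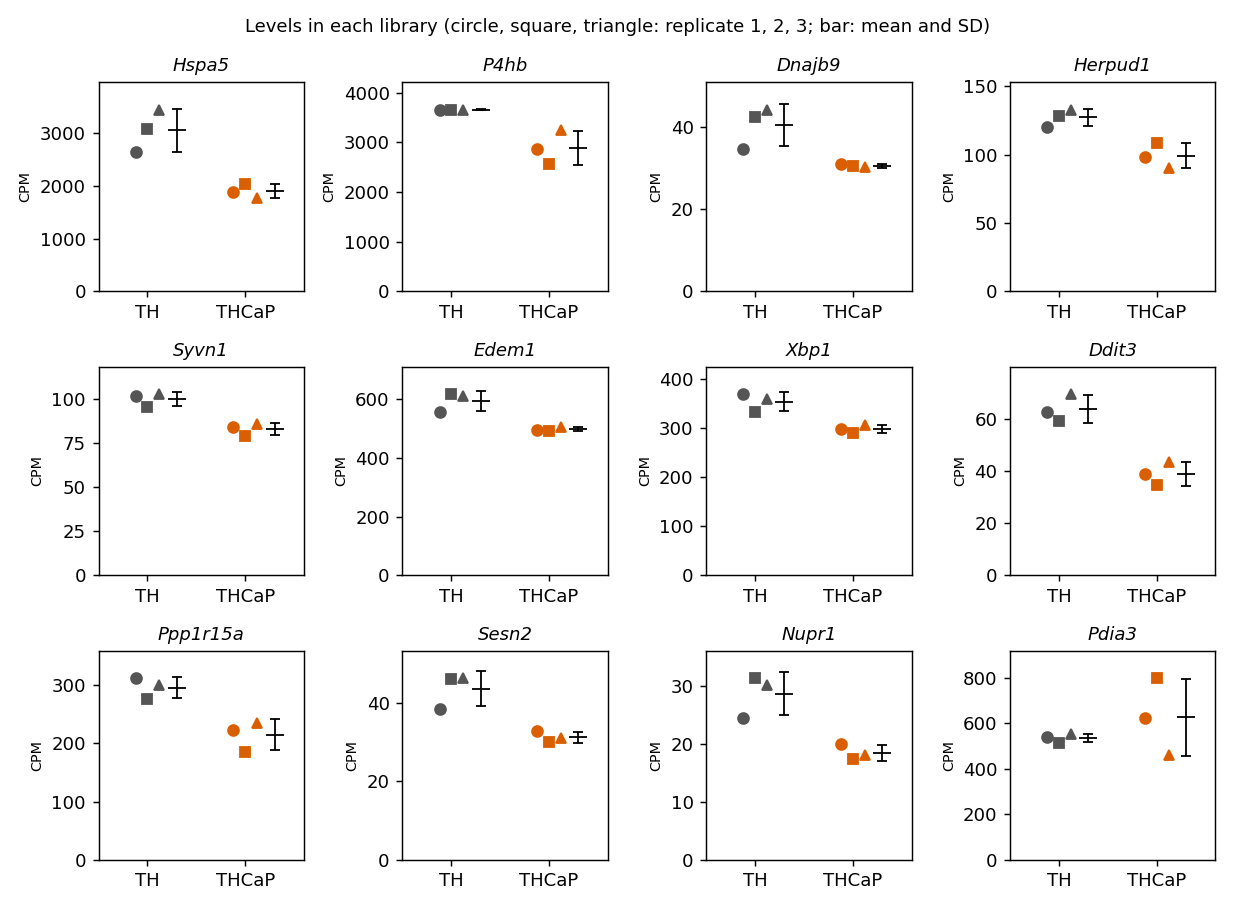
CPM (TMM-scaled counts per 1000000, y axes from 0) of the 11 called genes and Pdia3 in each library; grey is TH, orange is THCaP, and bars give the mean and SD of 3 libraries. For the 11 called genes all THCaP points lie below all TH points, whereas the THCaP points of Pdia3 span 461 to 799 CPM around TH.

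The roles differed in how they lay across libraries. Mean log2 expression relative to the 6-library mean was 0.0697, 0.153 and 0.172 in TH1, TH2 and TH3 for the ATF4-CHOP branch and −0.119, −0.177 and −0.0984 in THCaP1, THCaP2 and THCaP3. For the degradation genes it was 0.051, 0.0837 and 0.138 on TH and −0.0947, −0.0675 and −0.111 on THCaP. Both roles were lower in each THCaP library than in any TH library. For the folding genes the values were 0.0112, 0.0231 and 0.139 on TH and −0.0582, 0.169 and −0.284 on THCaP, so that the highest and the lowest of all 6 libraries were both THCaP. For the sensors and Xbp1 they were −0.029, 0.181 and 0.207 on TH and −0.0834, −0.281 and 0.00517 on THCaP, and TH1 lay within the THCaP range. For the translocation and membrane genes they were 0.134, 0.058 and −0.0492 on TH and −0.100, 0.0302 and −0.0722 on THCaP, which overlap. Over all tested genes each TH mean (0.003 to 0.011) also lay above each THCaP mean (−0.0129 to −0.00205), with far smaller differences. The means of the roles describe the genes chosen and were not tested. Together the 41 genes took 1.58% to 1.71% of all counts on TH and 1.36% to 1.49% on THCaP.

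Other genes of the same pathways were examined through lists drawn up by function. The background for each list is all tested genes, of which 12.0% were called lower and 11.6% higher. Of 20 further tested folding factors 6 fell and 3 rose, with a median of 0.0014. Without TH2, TH3 or THCaP1 these counts were 2 and 0, without THCaP2 4 and 1, and without THCaP3 6 and 5. The oxidase Ero1a, which recharges PDI and is a known target of CHOP and of hypoxia, was 1.68-fold lower, from 1946 ± 380.5 to 1160.1 ± 237 CPM (−0.75, SE 0.17, adjusted p = 0.0169 in edgeR), and the prolyl isomerase Fkbp14 was 1.64-fold lower (−0.71, SE 0.17). Both calls were lost without TH2, TH3 or THCaP1, with adjusted p up to 0.0862. Of 23 further degradation genes 1 rose, the ubiquitin ligase Rnf5 (0.34, SE 0.10), and 0 fell (6 at an unadjusted p under 0.05, 3 with DESeq2 and 0 with limma-voom). Without THCaP3 the list had 3 higher and 3 lower, without TH1 1 and 1, and without THCaP2 0 and 1. The Rnf5 call was lost without TH2, TH3, THCaP1 or THCaP2 (adjusted p up to 0.139).

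Of 23 further translocation genes 2 fell, the signal recognition particle receptor Srpr (−0.35, SE 0.08) and the channel partner Sec62 (−0.27, SE 0.08), and 0 rose (3 at an unadjusted p under 0.05, 1 with DESeq2 and 0 with limma-voom). Among all tested genes 12.0% were called lower and 11.6% higher. Without THCaP3 4 of the translocation list were higher and 3 lower, and with library totals 2 were higher and 1 lower. Srpr lost its call without TH2, TH3 or THCaP1 (adjusted p up to 0.079), and Sec62 without any of TH1, TH2, TH3, THCaP1 and THCaP2 (up to 0.168). Of 25 further regulators 6 fell and 2 rose; 3 fell and 0 rose without TH2, TH3 or THCaP1, and 5 fell and 0 rose without THCaP2. Without THCaP3 8 fell and 6 rose, and with library totals 5 fell and 5 rose. The largest changes were in Bbc3 (PUMA), a promoter of apoptosis that CHOP and p53 can induce, which was 1.78-fold lower at 93.4 ± 2.31 and 52.4 ± 8.35 CPM (−0.84, SE 0.11, adjusted p = 0.00344 in edgeR), and in the adaptor Nck1 (−0.64, SE 0.09). Both kept their calls in each of the 16 alternatives.

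The last list holds further ATF4 targets, mostly genes of amino acid supply. Of 27 tested, 9 rose, 3 fell (Eif4ebp1, Slc7a11 and Sars, named after their values were seen) and 15 were not called, with a median of 0.20. The background over all tested genes was 11.6% higher and 12.0% lower. The amino acid transporter Slc7a5 was 1.58-fold higher, from 125 ± 2.65 to 198 ± 48.4 CPM (0.66, SE 0.15, adjusted p = 0.0162 in edgeR; 0.0585 without TH2 and 0.0638 without TH3). The mitochondrial serine enzyme Shmt2 was 1.57-fold higher (0.65, SE 0.16; 0.0693 without TH2, 0.0777 without TH3 and 0.0551 without THCaP1). In THCaP1, THCaP2 and THCaP3 Slc7a5 stood at 192, 249 and 153 CPM and Shmt2 at 336, 439 and 265 CPM. Both thus had the order of THCaP libraries described for most folding genes. Among all tested genes THCaP2 was the highest THCaP library in 42.4% and THCaP3 the lowest in 41.1%. The number called higher in this list ran from 0 without TH2 or TH3 to 14 without THCaP3 and was 4, 1 and 3 without TH1, THCaP1 and THCaP2. Over all genes it was 294 without TH2 or TH3, 2145 without THCaP3, and 1071, 291 and 734 without TH1, THCaP1 and THCaP2. In this list the number called lower was 0 without TH3 or THCaP1 and 1 to 3 without any of the others. Over all genes it was 490 without TH3, 465 without THCaP1 and 506 to 2020 without any of the others. Many of these genes also respond to other factors, and the difference between this list and the 11 genes of the branch was not tested.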

How the data were processed

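RNA was measured in 6 libraries as counts per gene. The deposited counts are whole reads per gene symbol. Tools named in the submitters' processing notes are fastp, HISAT2 and HTSeq, with build mm10. Their versions, the annotation and the strand setting were not given in the sources used here. The deposited FPKM values follow from these counts: count and FPKM gave a gene length whole within 0.01 bases for 100% of 11923 genes (those with 10 or more counts in some library).

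Groups and replicate numbers came from the sample labels. In R 4.3.3, edgeR 4.0.16 (filterByExpr with minimum count 10 and total 15, TMM factors, robust quasi-likelihood F test, no covariate) was fitted to all genes of all 6 libraries. Adjusted p-values are Benjamini-Hochberg over 11480 genes, called under 0.05. SE is the absolute log2 fold change over the square root of F. Group values are TMM-scaled CPM, mean ± SD. The labels do not say that libraries came from separate cultures on separate surfaces, so p-values measure only the spread between these libraries, which may be technical. Between 3 and 3 libraries the smallest exact two-sided permutation p is 0.1, so single ratios are given without a test.

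Alternatives were DESeq2 1.42.0, limma-voom (limma 3.58.1), RLE factors, library totals, no filter, 5 CPM in 3 libraries, the replicate number as block, limma on log2(FPKM + 1) and log2(FPKM + 0.1) for genes of mean FPKM at least 1, the former also unfiltered, and each library left out. Libraries of a group differed beyond sampling noise (chi-square per degree of freedom 3.84 to 48.4). Scripts were tested on simulated data. Members, lists and tests were chosen with earlier results of these data known. Each of the 41 genes is named; library values are given for called genes of at least 5 CPM and for Hspa5, Xbp1, Atf6, Ern1, Eif2ak3, Atf4 and Ddit3, and the 2 called genes of at least 5 CPM with the largest change are named from each other list. Exons of 14 of the 41 genes overlap another gene in GENCODE vM21 (GRCm38), the source of gene positions, and Calr has a named pseudogene; such genes may share or lose reads.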

Additional observations from a re-analysis of the deposited data

How the results depend on the processing

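Over the 16 alternatives, 3 of the 11 called genes (Hspa5, Ddit3 and Nupr1) kept their call in each, and none of the 11 changed direction. Of the 30 genes not called, 10 stayed so with the same sign in each. Called lower were 8 of the 41 with library totals, the replicate block, log2(FPKM + 1) or log2(FPKM + 0.1), and 4 with log2(FPKM + 1) unfiltered, where the chaperones numbered 1 and over all genes 729 were higher and 530 lower. For degradation genes the number was 1 with library totals, the replicate block, log2(FPKM + 1) and log2(FPKM + 0.1), and 0 unfiltered. For the sensors and Xbp1 it was 0 in these 5 analyses and without the count filter. For translocation genes it was 1 with DESeq2 and with 5 CPM. Same-numbered libraries did not deviate together (correlations −0.020, −0.072 and 0.060), so numbers were not taken as pairs, and the block moved the count of the 41 from 11 to 8 lower. Over all genes the block moved the lower calls from 1376 up to 1457 and the higher calls from 1333 to 1424. With log2(FPKM + 1) 972 of all genes were lower and 1787 higher, and with log2(FPKM + 0.1) 960 and 1779.

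Leaving out 1 library gave 3 to 13 of the 41 lower and 0 to 3 higher: chaperones 1 to 5 lower and 0 to 3 higher, degradation genes 0 to 4, sensors 0 to 3 and ATF4-CHOP genes 2 to 4 lower. Over all genes 291 to 2145 were higher and 465 to 2020 lower. Each of these analyses had 1 library fewer, and the cause of the shifts was not tested.

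Reversed signs concerned uncalled genes. With library totals, log2(FPKM + 1) (also unfiltered) and log2(FPKM + 0.1), log2 fold changes were 0.0301, 0.0112 and 0.0112 for Pdia6, 0.0143, 0.00936 and 0.00957 for Dnajc3, and 0.0156, 0.0172 and 0.0175 for Ppp1r15b. Edem2 turned only on the FPKM scales (7.45e-05 and 0.000117). With 1 library left out the ranges were −0.27 to 0.0378 for Calr, −0.0491 to 0.12 for Canx, −0.18 to 0.11 for Pdia6, −0.12 to 0.0485 for Dnajc3, −0.12 to 0.26 for Creld2, −0.33 to 0.0364 for Sdf2l1, −0.0309 to 0.0668 for Sec61a1, −0.0814 to 0.18 for Chac1 and −0.0455 to 0.20 for Ddit4.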
